A study of Rattus norvegicus with 45 samples.

Results

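The genes described are 10 members of the chemokine system: the ligands Ccl2, Ccl3, Ccl4, Ccl5, Ccl7, Cxcl1, Cxcl10 and Cxcl12 and the receptors Cx3cr1 and Cxcr4. They were taken by name, as every probe set (the group of short probes that together measure a transcript) whose only platform symbol was one of these genes. This gave 14 probe sets of the 31042 on the array that are not controls, and 10 of the 14217 genes with a probe set of their own. Cxcl12 and Cxcr4 each had 3 probe sets and the other 8 genes had 1. The study gave cerivastatin, a statin that blocks cholesterol synthesis at HMG-CoA reductase, to female SD rats by daily dosing for 14 days, and measured muscle RNA on 45 Affymetrix arrays. In the gastrocnemius, a mixed and mostly fast muscle, there were 8 groups, since vehicle (0.5% methylcellulose, plotted as dose 0) and the doses of 0.1, 0.5 and 1.0 mg/kg/day were each studied in animals that ran on a treadmill and in animals that did not. Exercised animals ran 20 min per day at a speed of 20 m/min, 5 days per week. In the soleus, a mostly slow muscle, there were 4 groups, 1.0 mg/kg/day and vehicle, again with and without exercise. Groups held 4 arrays, apart from 3 groups of 3 arrays: exercised gastrocnemius at 0.5 mg/kg/day, and both muscles of unexercised animals at 1.0 mg/kg/day. The age of the animals is not given in the sources used here. The stated aims were to learn what the drug does, what exercise adds to it, and what lies behind the different sensitivity of muscle fibre types. Below, 1.0 mg/kg/day is called the high dose.

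Chemokines are small secreted proteins that draw leukocytes along a concentration gradient by binding receptors that couple to G proteins. Ccl2 and Ccl7 attract monocytes through the receptor Ccr2, whereas Ccl3 and Ccl5 act on Ccr1, Cxcl1 attracts neutrophils through Cxcr2, and Cxcl10 attracts activated T cells and NK cells through Cxcr3. These ligands are induced by inflammatory signals through NF-kappaB, AP-1 or interferon-driven factors. Cxcl12, made constitutively by stromal and endothelial cells, binds Cxcr4, and Cx3cr1, the receptor of Cx3cl1, marks monocytes and macrophages. In injured muscle, chemokines recruit the monocytes and macrophages that clear damaged fibres.

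Promoter sequences (250 bases before to 50 after the start, from RefSeq, build GRCr8) had an entry for 6 of the 10 genes: Ccl7, Cxcl1, Cxcl10, Cxcl12, Cx3cr1 and Cxcr4. The Cx3cr1 entry lies inside the gene and not at its outermost start, and is not described further. Ccl2, Ccl3, Ccl4 and Ccl5 had no entry. Both strands were searched for 3 motifs: the kappaB consensus, the core of the interferon-stimulated response element (GAAA, any 2 bases, GAAA) and the AP-1 site TGANTCA. Over all 33469 promoters of the same length, 4.18% held a kappaB match, 3.92% the interferon element core and 7.33% an AP-1 match. The 3 promoters with a match are printed, 5′ to 3′ on the strand of the gene, with matches in capitals. Their genes all rose in exercised high-dose gastrocnemius in the data below. So did Ccl2, Ccl3 and Ccl4, which had no entry, and whether the motifs bear on this was not tested. Ccl7 (chr10:67513845-67514144, plus strand) held an AP-1 match that began 73 bases before the start. Cxcl1 (chr14:17479272-17479571, minus strand) held 2 overlapping kappaB matches. They began 84 and 83 bases before the start, share most of their letters and are printed as 1 run of capitals. Cxcl10 (chr14:15988816-15989115, plus strand) held, in this order, 1 interferon element core, 1 kappaB match and 1 AP-1 match.
Ccl7: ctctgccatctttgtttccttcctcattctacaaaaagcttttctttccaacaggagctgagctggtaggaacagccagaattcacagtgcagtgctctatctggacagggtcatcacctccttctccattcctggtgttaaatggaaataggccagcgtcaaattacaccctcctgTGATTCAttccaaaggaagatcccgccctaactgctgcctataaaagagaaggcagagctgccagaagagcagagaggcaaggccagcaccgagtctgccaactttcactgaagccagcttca
Cxcl1: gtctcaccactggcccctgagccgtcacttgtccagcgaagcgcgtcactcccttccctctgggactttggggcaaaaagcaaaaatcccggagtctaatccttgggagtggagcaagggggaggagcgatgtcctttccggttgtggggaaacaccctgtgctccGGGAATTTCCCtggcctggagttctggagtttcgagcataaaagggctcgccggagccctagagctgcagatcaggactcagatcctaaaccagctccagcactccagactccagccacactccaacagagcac
Cxcl10: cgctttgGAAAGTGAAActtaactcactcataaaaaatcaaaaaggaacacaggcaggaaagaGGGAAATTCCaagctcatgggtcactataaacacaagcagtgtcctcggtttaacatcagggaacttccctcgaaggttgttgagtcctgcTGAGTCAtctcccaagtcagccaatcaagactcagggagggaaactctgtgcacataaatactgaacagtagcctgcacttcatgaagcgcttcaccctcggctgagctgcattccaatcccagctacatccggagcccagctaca
The promoters of Cxcl12 and Cxcr4 held none of the 3 motifs in this window. A match is a description of the letters and does not show that a factor binds there. Ccl2 and Ccl7 are neighbouring genes on chromosome 10 of the rat, as are Ccl3 and Ccl4 at another place on that chromosome, so that each pair shares its genomic surroundings.

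Values are the signals of the authors' array processing on a linear scale, and the arrays had nearly the same trimmed mean, of which 599.99 was the lowest. Skeletal muscle markers were high on every array, with summed signals of 12 genes from 141840.3 to 776023.0, and none of the marker genes used here was listed at 0 on any array. 4 arrays stood apart and bear on the results. In unexercised high-dose gastrocnemius, replicate 3 was far below replicates 1 and 2 in Ccl2, Ccl3, Ccl4, Ccl7, Cxcl1 and Cxcl10. The other 3 were replicate 3 of unexercised gastrocnemius at 0.1 mg/kg/day, replicate 1 of exercised high-dose soleus and replicate 3 of unexercised vehicle soleus. They had the 3 lowest GAPDH 5′ to 3′ ratios, 0.475, 0.624 and 0.624, where all arrays ranged from 0.475 to 0.888. These 3 arrays also had the 3 highest sums of endothelium markers (40834.6, 27912.4 and 19412.9). Replicate 1 of unexercised high-dose soleus had the next lowest ratio, almost the same as 0.624, and was kept throughout, so that the cut is arbitrary there. The main results are also given without these arrays where that changes them.

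In exercised gastrocnemius, the high dose went with higher Ccl2 and Ccl7, the monocyte attractants, which had the largest fold changes of the 10 genes. Ccl2 signals were 12886.7, 15786.7, 11769.6 and 18251.9 at the high dose, against 163.2, 16.6, 198.2 and 124.7 in exercised vehicle animals. The lowest high-dose array lay far above the highest vehicle array. The log2 fold change was 7.04 ± 0.92 (SE, n = 4 and 4, adjusted p = 7.88e-06, limma). Ccl7 signals were 9564.3, 11817.7, 5015.1 and 9752.4 at the high dose, against 8.2, 98.4, 166.9 and 89.0 with vehicle. Again no array of one group reached the other, and the log2 fold change was 6.75 ± 0.86 (adjusted p = 6.69e-06). Of the 14 probe sets 9, standing for 8 of the 10 genes, rose in this comparison and none fell, against 16.4% of all probe sets that rose. The median log2 fold change was 1.81 over the 14 and -0.1 over all probe sets.

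**Figure D1:**
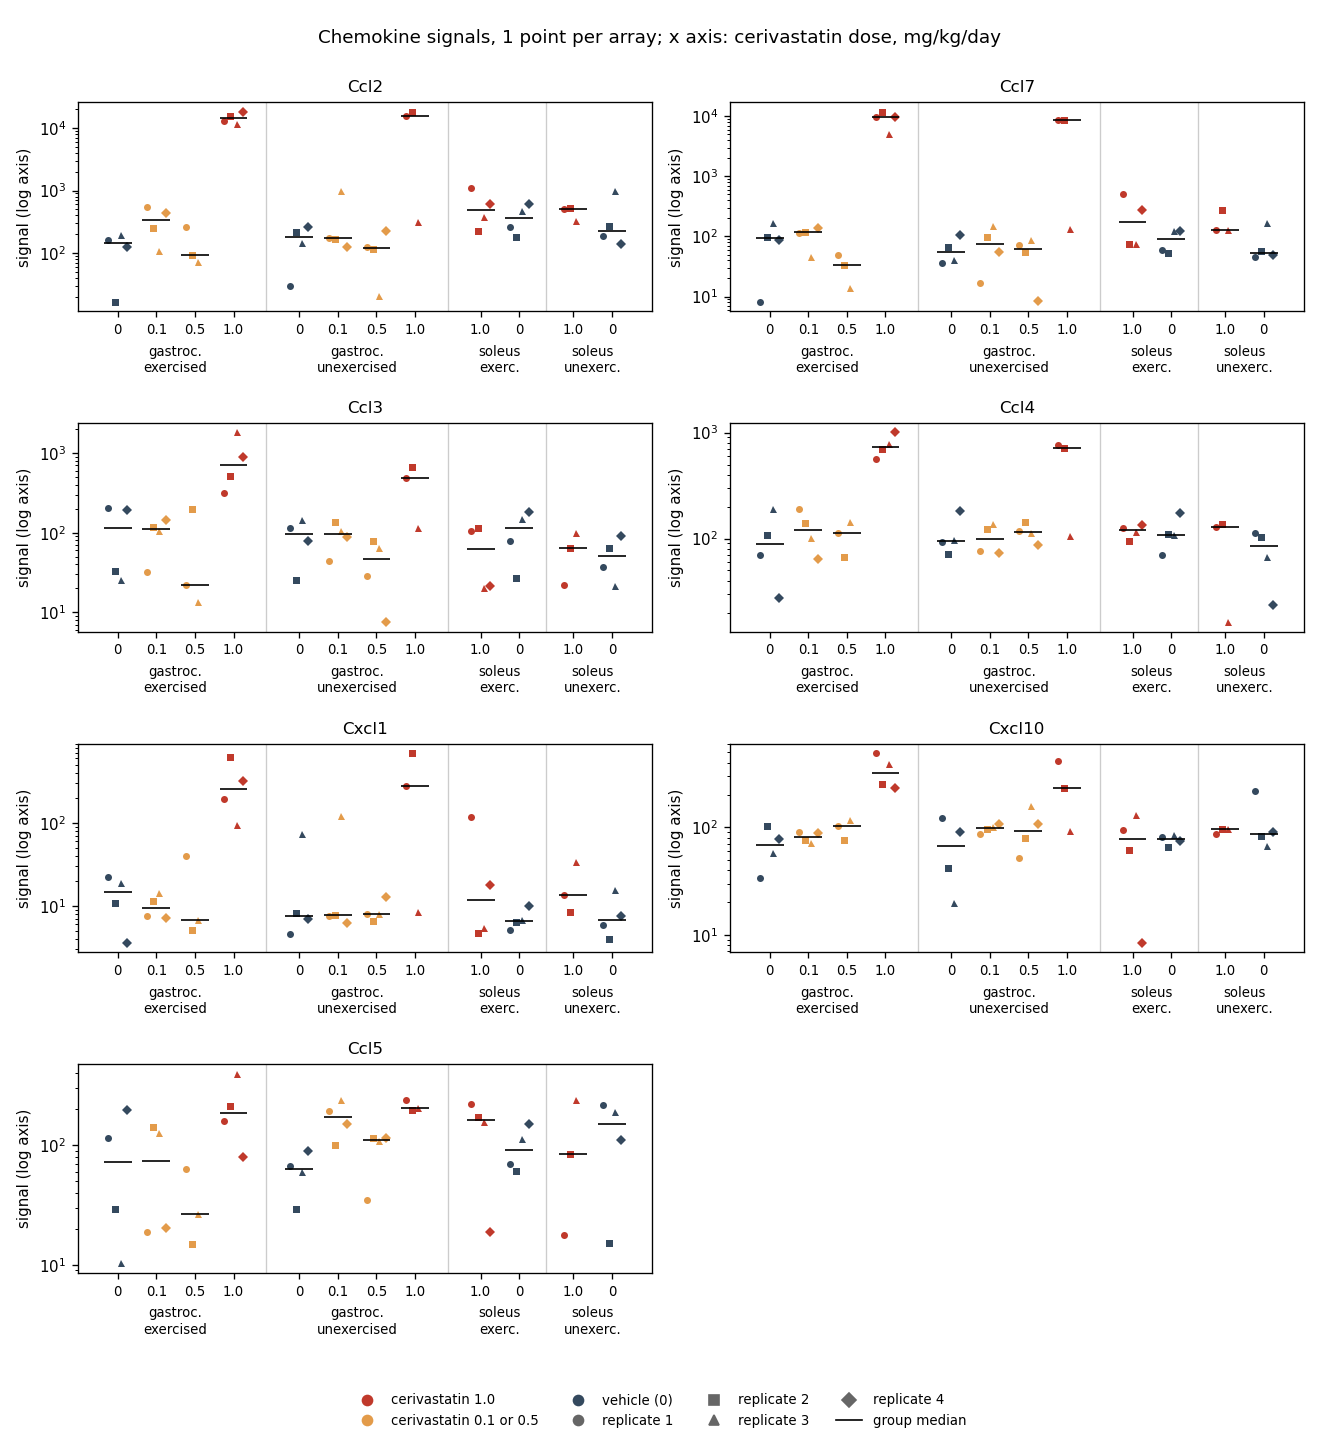
Signal (log axis) of 7 chemokine ligands on every array, against cerivastatin dose in mg/kg/day, for exercised and unexercised gastrocnemius and soleus; symbols are replicates and bars are group medians. Ccl2 lies between 11769.6 and 18251.9 in exercised high-dose gastrocnemius, and replicate 3 of the unexercised high-dose animals lies at 316.2.

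Ccl3 and Ccl4, the macrophage inflammatory proteins, also rose in exercised high-dose gastrocnemius. Ccl4 signals were 569.2, 695.2, 783.7 and 1003.7 at the high dose, against 69.7, 108.5, 188.2 and 27.3 with vehicle, without overlap. Its log2 fold change was 3.01 ± 0.48 (adjusted p = 4.73e-05). Ccl3 had signals of 318.1, 517.4, 1810.5 and 885.0 at the high dose, against 205.8, 33.5, 25.3 and 193.6 with vehicle. The groups did not overlap, although replicate 1 of the high-dose group was closer to the highest vehicle array than to replicate 3 of its own group, and the log2 fold change was 2.96 ± 0.72 (adjusted p = 0.00214). Ccl5, or RANTES, a T cell and monocyte attractant, gave 158.5, 213.4, 396.3 and 80.3 at the high dose, against 115.1, 29.2, 10.3 and 196.1 with vehicle. These groups overlapped, and the log2 fold change of 1.47 ± 0.61 did not pass the threshold (adjusted p = 0.0693). The 95% interval of this difference ran from 0.21 to 2.72. Ccl5 passed without replicate 4 of the high-dose group (1.82, adjusted p = 0.0394) and without vehicle replicate 1 (1.75, adjusted p = 0.0474) or 4 (1.99, adjusted p = 0.0169).

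Among the CXC ligands whose promoters are printed above, Cxcl1, the neutrophil attractant with the overlapping kappaB matches, had signals of 192.4, 612.3, 95 and 318.0 at the high dose, against 22.1, 10.9, 18.8 and 3.6 with vehicle. No array overlapped, and the log2 fold change was 3.37 ± 0.76 (adjusted p = 0.00119). Most of its signals outside high-dose gastrocnemius lay near the offset of 12.4 that was added before taking logarithms, which makes its fold change smaller. Cxcl10, the interferon-inducible T cell attractant with matches to all 3 motifs, had signals of 493.8, 252.4, 387.1 and 234.4 at the high dose, against 33.6, 103.5, 57.3 and 78.7 with vehicle. The groups were separate, and the log2 fold change was 2.15 ± 0.43 (adjusted p = 0.000363).

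The 3 probe sets of Cxcl12, the homeostatic ligand, disagreed. Probe set 1387655_at had signals of 586.5, 1243.4, 833.7 and 1332.6 at the high dose, against 344.7, 93.9, 343.3 and 156.3 with vehicle. It rose by a log2 fold change of 2.14 ± 0.43 (adjusted p = 0.000364), with no overlap. Probe set 1369633_at had signals of 2899.8, 6033.2, 4188.0 and 6710.2 at the high dose, against 1665.4, 2158.1, 1895.5 and 1626.3 with vehicle, also without overlap, and a log2 fold change of 1.36 ± 0.28 (adjusted p = 0.000446). Probe set 1388583_at had signals of 2234.0, 2113.5, 3299.7 and 2361.6 at the high dose, against 2241.7, 4231.1, 3849.5 and 2823.1 with vehicle. These groups overlapped and the log2 fold change was -0.37 ± 0.34 (adjusted p = 0.445). Which Cxcl12 transcripts each probe set measures is not given in the sources used here, and a single direction for Cxcl12 can therefore not be stated.

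Of the receptors, Cxcr4, the Cxcl12 receptor, passed the threshold with 1 of its 3 probe sets. Probe set 1373661_a_at had signals of 360.0, 601.0, 854.4 and 940.5 at the high dose, against 302.7, 335.5, 376.4 and 242.0 with vehicle, so that replicate 1 of the high-dose group lay inside the vehicle range. Its log2 fold change was 1.03 ± 0.31 (adjusted p = 0.012). This call was lost with quantile normalization (0.79, adjusted p = 0.062) and without replicate 4 of the high-dose group (0.85, adjusted p = 0.0621). The other Cxcr4 probe sets, 1370097_a_at and 1389244_x_at, gave 0.75 ± 0.36 and 0.73 ± 0.34 (adjusted p = 0.117 and 0.111). Without replicate 1 of the high-dose group both passed (1.00, adjusted p = 0.043, and 0.99, adjusted p = 0.0323), and without vehicle replicate 2 1389244_x_at passed (0.97, adjusted p = 0.041). Cx3cr1 had signals of 22.4, 69.7, 201.7 and 153.3 at the high dose, against 9.8, 94.6, 31.3 and 11 with vehicle. The groups overlapped, and the log2 fold change was 1.35 ± 0.67 (adjusted p = 0.134). Without replicate 1 of the high-dose group it passed as well (1.85, adjusted p = 0.0417).

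**Figure D2:**
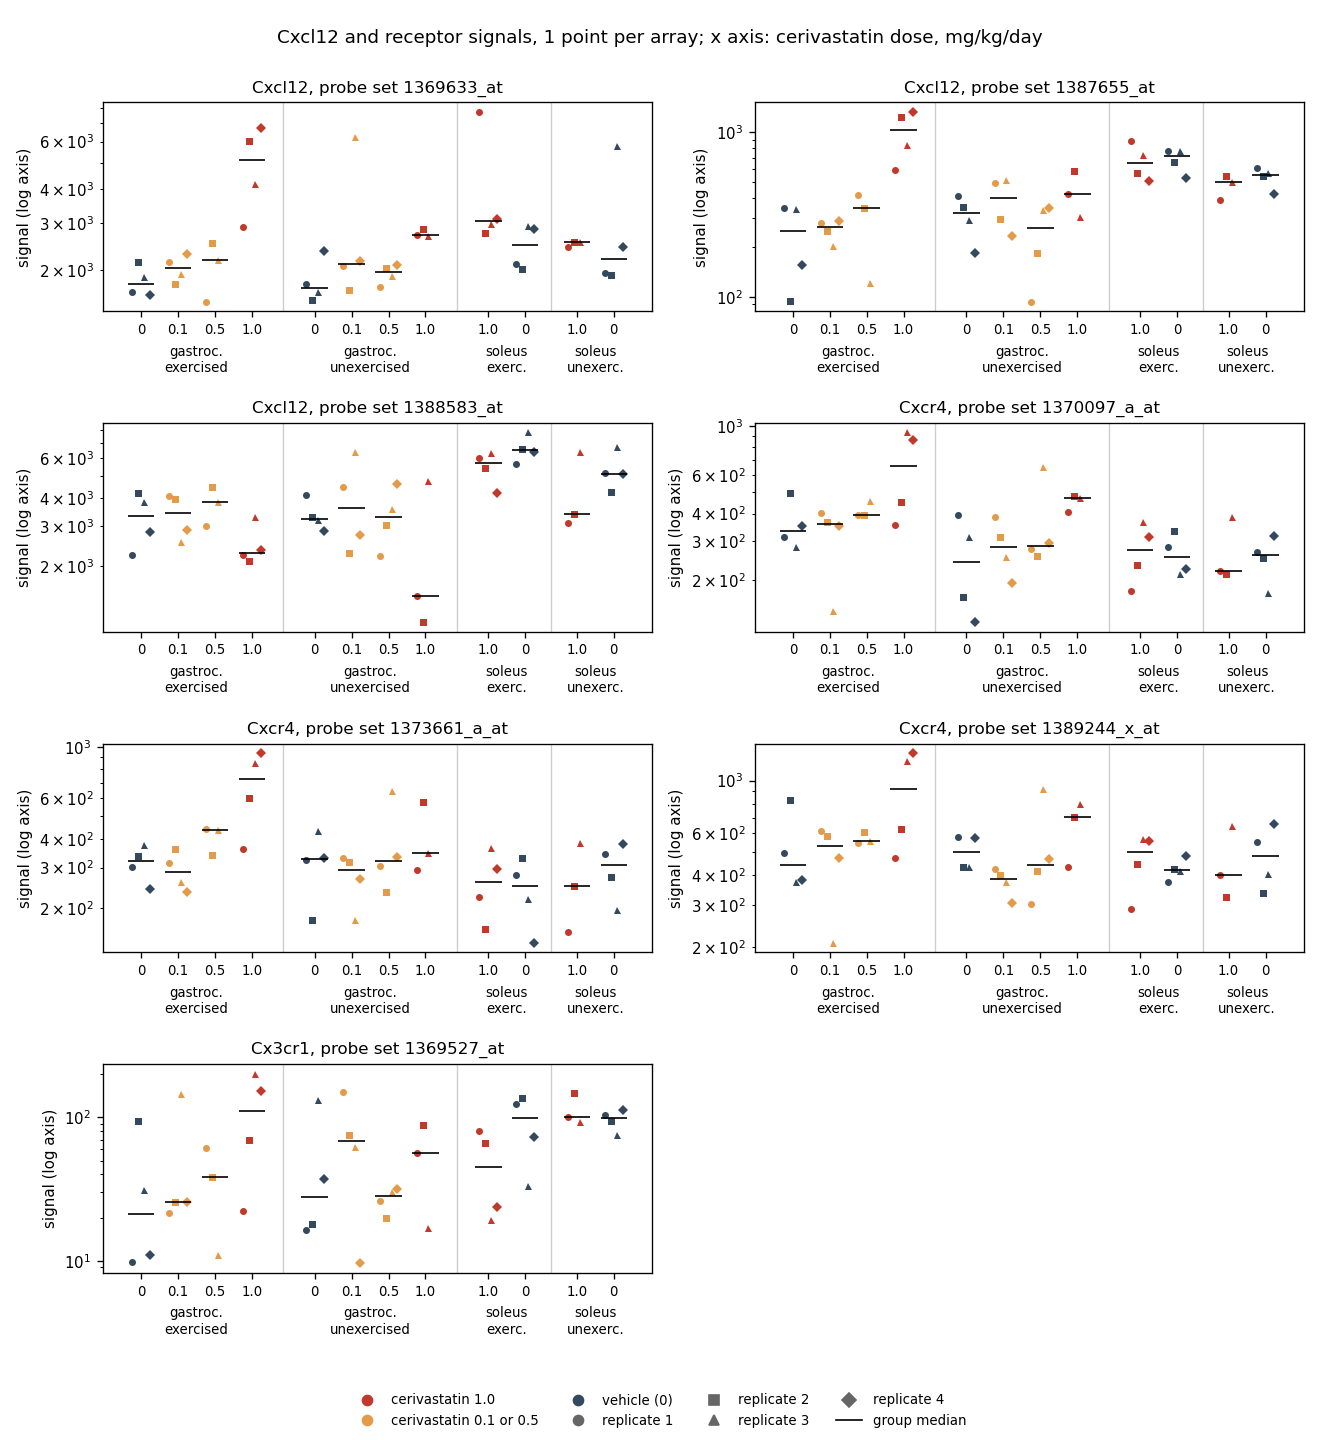
Signal (log axis) of the 3 Cxcl12, 3 Cxcr4 and 1 Cx3cr1 probe sets on every array, against cerivastatin dose in mg/kg/day by muscle and exercise; symbols are replicates and bars are group medians. In exercised high-dose gastrocnemius, 1369633_at and 1387655_at lie above all exercised vehicle arrays, whereas 1388583_at overlaps with them at 2113.5 to 3299.7.

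In unexercised gastrocnemius, the same ligands were high at the high dose in 2 of 3 animals. Ccl2 signals were 15821.5, 18069.9 and 316.2 at the high dose, against 29.9, 215.9, 144.7 and 262.2 with vehicle. Replicates 1 and 2 reached the level of the exercised high-dose animals, whereas replicate 3 lay just above the highest vehicle array. The log2 fold change was 4.99 ± 0.99 (n = 3 and 4, adjusted p = 0.0122). Ccl7 signals were 8731.0, 8678.6 and 134.8 at the high dose, against 36.1, 67.7, 41.2 and 104.5 with vehicle. Its pattern was the same, with replicate 3 just above the vehicle range and a log2 fold change of 4.99 ± 0.93 (adjusted p = 0.00938).

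Ccl4 gave 765.5, 711.1 and 105.1 at the high dose, against 92.1, 72.0, 96.3 and 182.3 with vehicle, and Cxcl10 gave 417.1, 235.3 and 92.0, against 122.1, 42.2, 19.9 and 91.1 with vehicle. In both, replicate 3 lay inside the vehicle range. Both passed the threshold, with log2 fold changes of 1.79 ± 0.52 for Ccl4 (adjusted p = 0.0445) and 1.66 ± 0.46 for Cxcl10 (adjusted p = 0.0369). Ccl4 lost its call with an offset of 1 (adjusted p = 0.0547), median centring (0.0526), quantile normalization (0.0588) and a prior variance without a mean trend (0.0579). It was also lost without vehicle replicate 1, 2 or 3 (adjusted p = 0.0933, 0.108 and 0.0893), and Cxcl10 was lost without vehicle replicate 2 or 3 (adjusted p = 0.0901 and 0.116). Cxcl1 gave 275.7, 692.8 and 8.5 at the high dose, against 4.6, 8.3, 73.9 and 6.9 with vehicle. Its log2 fold change was 2.55 ± 0.82 (adjusted p = 0.0644), and it passed with an offset of 50 (adjusted p = 0.0457) and in a fit on all 45 arrays (adjusted p = 0.029). Cxcl1 also passed without the 3 arrays of lowest GAPDH ratio (adjusted p = 0.0279), none of which is in either group. Of all probe sets 3640 were then called in either direction, where the main fit called 1603. Ccl3 gave 481.0, 666.3 and 113.8, against 114.4, 25.4, 143.3 and 77.7 with vehicle, a log2 fold change of 1.94 ± 0.77 (adjusted p = 0.133).

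Ccl5 differed from the other inducible ligands in that replicate 3 was not low. Its signals were 236.9, 196.7 and 203.9 at the high dose, against 67.1, 29.2, 60.2 and 89.5 with vehicle. All 3 high-dose arrays lay above all 4 vehicle arrays, yet the log2 fold change of 1.67 ± 0.66 did not pass (adjusted p = 0.128). The Cxcl12 probe sets 1369633_at, 1387655_at and 1388583_at gave 0.59 ± 0.30, 0.48 ± 0.46 and -0.74 ± 0.36 (adjusted p = 0.246, 0.598 and 0.235). The Cxcr4 probe sets gave 0.32 to 0.94 and Cx3cr1 gave 0.23 ± 0.73, and none of these 4 passed.

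In all, 4 of the 14 probe sets, for Ccl2, Ccl4, Ccl7 and Cxcl10, rose in unexercised high-dose gastrocnemius, against 3.24% of all probe sets that rose. Replicates 1 and 2 carry this result. Without replicate 3, 7 of the 14 passed: Ccl2 (6.89 ± 0.83), Ccl7 (6.96 ± 0.70), Ccl3, Ccl4, Cxcl1 and Cxcl10 rose, and Cxcl12 probe set 1388583_at fell (-1.36 ± 0.33, adjusted p = 0.00448). Of all probe sets 10.1% then rose and 7.96% fell. Without replicate 1 or without replicate 2, none of the 14 passed, and without vehicle replicate 2 or 3, 2 passed. Fitting only the 7 arrays of the groups compared left none (Ccl2 adjusted p = 0.158). Replicate 3 also had low summed macrophage and monocyte markers (11554.9, against 89768.5 and 98794.4 in replicates 1 and 2) and a skeletal muscle sum of 580377.5, against 354755.0 and 259614.5. Nothing in the labels sets replicate 3 apart, and why it differs was not tested.

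**Figure D3:**
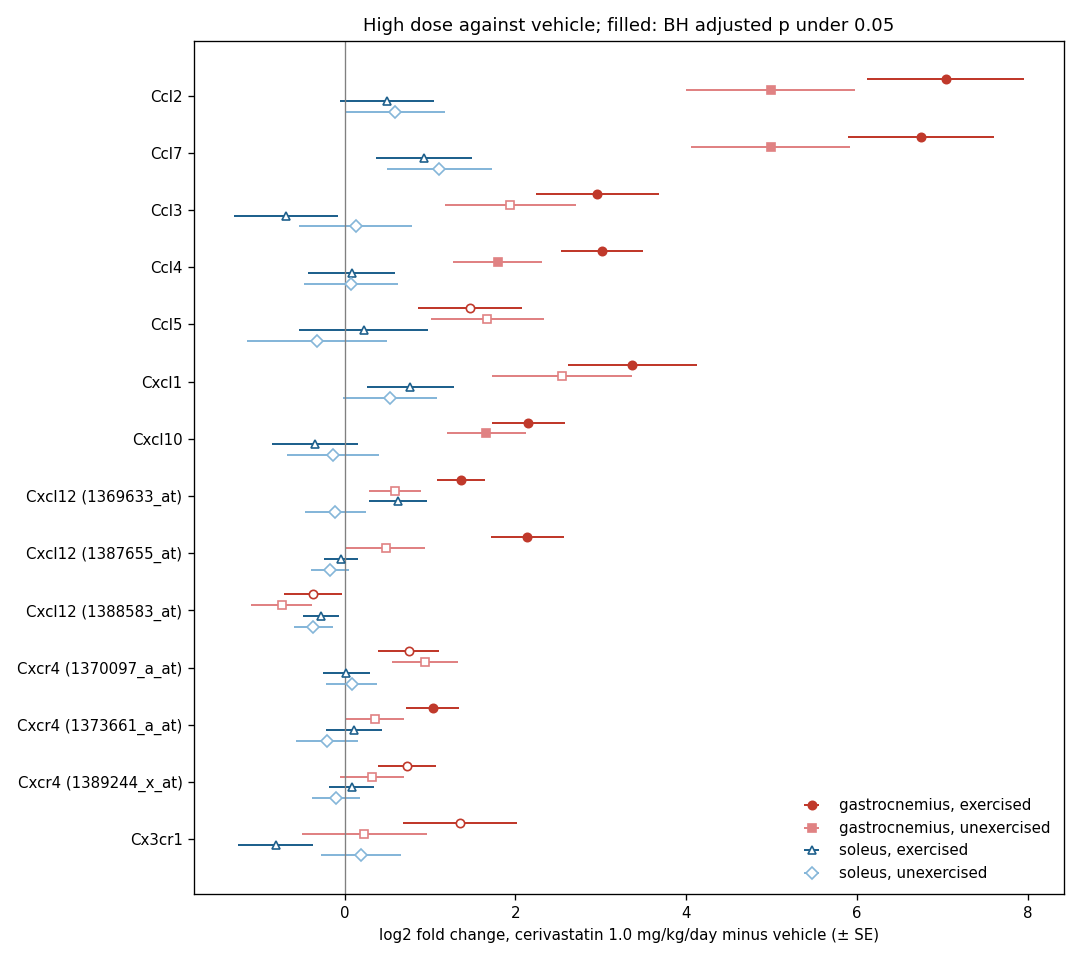
Log2 fold change (± SE, x axis) of each of the 14 probe sets at cerivastatin 1.0 mg/kg/day minus vehicle, in 4 muscle and exercise settings; filled symbols passed an adjusted p of 0.05. The 9 filled circles of exercised gastrocnemius run from 1.03 (Cxcr4, 1373661_a_at) to 7.04 (Ccl2), and no soleus symbol is filled.

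None of the 14 probe sets passed the threshold at the lower doses. In exercised gastrocnemius, Ccl2 signals were 548.8, 250.5, 106.1 and 438.0 at 0.1 mg/kg/day and 263.7, 94.5 and 71.9 at 0.5 mg/kg/day, beside the vehicle values above. In unexercised gastrocnemius they were 176.2, 170.1, 982.9 and 125.8 at 0.1 mg/kg/day and 123.8, 115.6, 20.8 and 224.6 at 0.5 mg/kg/day. The 982.9 belongs to the array of lowest GAPDH ratio, and every other lower-dose array lay under 600 (the highest was 548.8). At 0.5 mg/kg/day no member passed in exercised (0% of all probe sets called, 1144 at an unadjusted p under 0.05) or unexercised gastrocnemius (0%, 1101 unadjusted). At 0.1 mg/kg/day none passed in exercised (0%, 1546 unadjusted) or unexercised animals (0%, 1397 unadjusted, with 1 of the 14). That 1 was Ccl5 without exercise, with 192.3, 99.9, 238.3 and 150.5, all above its vehicle arrays (log2 fold change 1.32 ± 0.61, adjusted p = 0.917). The 95% interval for Ccl2 at 0.1 mg/kg/day with exercise ran from -0.44 to 3.32, and at 0.5 mg/kg/day without exercise from -2.28 to 1.48, so that differences of such sizes are not excluded.

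The step between 0.5 and 1.0 mg/kg/day was therefore tested directly. With exercise, 9 of the 14 probe sets rose, against 15.4% of all probe sets. All 9 were higher on every array at 1.0 than at 0.5 mg/kg/day, which was not counted over all probe sets. They were Ccl2 (6.74 ± 0.99), Ccl7 (7.68 ± 0.93), Ccl3 (3.68 ± 0.77), Ccl4 (2.71 ± 0.52), Cxcl1 (3.32 ± 0.82), Cxcl10 (1.62 ± 0.46), Ccl5 (2.18 ± 0.66, adjusted p = 0.0133) and the same 2 Cxcl12 probe sets. Ccl5 signals were 62.8, 15.1 and 26.5 at 0.5 mg/kg/day, below its 4 high-dose arrays given above. Without exercise, 4 of the 14 rose, against 3.33% of all probe sets, namely Ccl2 (5.39 ± 0.99), Ccl7 (5.26 ± 0.93), Ccl3 (2.84 ± 0.77, adjusted p = 0.0323) and Cxcl1 (2.93 ± 0.82, adjusted p = 0.0367). Without replicate 3 of the high-dose group 6 rose and Cxcl12 probe set 1388583_at fell (-1.32 ± 0.33), while 9.89% of all probe sets rose and 8.21% fell, and without replicate 1 or 2 none passed. Without the 3 arrays of lowest GAPDH ratio 5 rose, as Ccl4 joined (1.68 ± 0.52, adjusted p = 0.0349). Calls over all 31042 probe sets, in either direction, also went up there, from 1618 to 3734. The high-dose arrays are shared with the comparison against vehicle, so that the member counts are no second sample of the same effect.

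Exercise alone was tested in vehicle animals. In gastrocnemius none of the 14 passed in exercised against unexercised vehicle animals (0% of all probe sets called, 1319 unadjusted), and the log2 differences ran from -0.51 to 0.60. For Ccl2 the difference was -0.38 ± 0.92, with a 95% interval from -2.26 to 1.5. Whether exercise changed the response to the high dose was tested as the difference of the 2 fold changes, exercised minus unexercised. No member passed (0% called, 1870 unadjusted, with 1 of the 14). Ccl2 gave 2.05 ± 1.35 and Ccl7 1.76 ± 1.26 (adjusted p = 0.772 and 0.777), with 95% intervals from -0.72 to 4.81 and from -0.84 to 4.35. Without replicate 3 of the unexercised high-dose group these were 0.15 ± 1.08 and -0.21 ± 0.91. The 1 member under an unadjusted p of 0.05 was Cxcl12 probe set 1387655_at (1.66 ± 0.63, adjusted p = 0.771), which had 421.5, 579.3 and 303.9 in unexercised high-dose muscle, against 412.1, 353.2, 291.5 and 184.1 in unexercised vehicle muscle.

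In the soleus, none of the 14 probe sets passed the threshold at the high dose. With exercise, Ccl2 signals were 1112.0, 229.2, 374.9 and 604.3 at the high dose, against 264.1, 183.7, 472.2 and 599.9 with vehicle. The groups overlapped, with a log2 fold change of 0.50 ± 0.55 and a 95% interval from -0.66 to 1.67. Without exercise they were 506.0, 534.6 and 327.7 at the high dose, against 184.8, 274.6, 1002.5 and 139.0 with vehicle, a log2 fold change of 0.59 ± 0.59. Ccl7 gave 502.7, 74.4, 75.8 and 275.9, against 60.1, 52.1, 122.2 and 122.9 with exercise (0.93 ± 0.56), and 126.0, 279.4 and 126.4, against 46.2, 56.5, 170.3 and 49.8 without (1.11 ± 0.61, 95% interval from -0.18 to 2.40). The 1112.0, the 502.7, the 1002.5 and the 170.3 all come from the 2 soleus arrays of lowest GAPDH ratio. Without them, Ccl2 gave 0.12 ± 0.39 with exercise and 1.16 ± 0.42 without (adjusted p = 0.978 and 0.96), and Ccl7 gave 0.44 ± 0.48 and 1.49 ± 0.51 (adjusted p = 0.901 and 0.938). The unexercised comparison then lacked a vehicle array but no high-dose array, although replicate 1 of its high-dose group had almost the same GAPDH ratio. All 3 high-dose arrays lay above the remaining 3 vehicle arrays for both genes, which was not counted over all probe sets. Neither gene passed the threshold, and a soleus response is not shown by this. No member passed with exercise (0% called, 1705 unadjusted) or without (0%, 1017 unadjusted), and none passed for exercise alone in vehicle soleus (0%, 1170 unadjusted). Over the 14 probe sets, log2 fold changes at the high dose ran from -0.81 to 0.93 with exercise and from -0.37 to 1.11 without.

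The muscles were then compared directly, with their arrays treated as independent. The fold change at the high dose in soleus minus that in gastrocnemius, both exercised, was negative for 6 of the 14 probe sets past the threshold, against 9.24% of all probe sets called lower. It was -6.54 ± 1.2 for Ccl2, -5.81 ± 1.13 for Ccl7 and -3.66 ± 0.99 for Ccl3. It was -2.93 ± 0.71 for Ccl4, -2.5 ± 0.65 for Cxcl10 and -2.18 ± 0.52 for Cxcl12 probe set 1387655_at, and these 6 had adjusted p-values from 0.000489 (Ccl2) to 0.00933 (Ccl3). Without the 3 arrays of lowest GAPDH ratio 8 passed, as Cxcl1 (-3.25 ± 0.91) and Cxcl12 probe set 1369633_at (-1.09 ± 0.27) joined them. Of all 31042 probe sets, 7366 were then called in either direction, where the main fit called 5195. In unexercised animals no member passed (0.00322% of all probe sets called, with 4 of the 14 at an unadjusted p under 0.05), and Ccl2 gave -4.41 ± 1.29 (adjusted p = 0.133). Without replicate 3 of the unexercised high-dose gastrocnemius 5 were lower, against 5.67% of all probe sets: Ccl2 (-6.30 ± 1.09), Ccl7 (-5.85 ± 0.96), Cxcl1 (-3.50 ± 0.95), Ccl4 (-2.61 ± 0.72) and Cxcl10 (-2.35 ± 0.71). RNA input (3 µg for soleus, 4 µg for gastrocnemius) went with the muscle, and the effects of both cannot be told apart.

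Between the muscles of vehicle animals, Cxcl12 was the 1 gene of the 10 that passed the threshold, and it did so in exercised animals. There, probe set 1387655_at had 771.0, 660.1, 772.9 and 527.1 in soleus, against 344.7, 93.9, 343.3 and 156.3 in gastrocnemius (log2 difference 1.65 ± 0.37, adjusted p = 0.00331). Probe set 1388583_at had 5668.1, 6606.7, 7813.8 and 6432.0 in soleus, against 2241.7, 4231.1, 3849.5 and 2823.1 in gastrocnemius (1.04 ± 0.31, adjusted p = 0.028). Neither pair of groups overlapped. These 2 of 14 stand against 4% of all probe sets called higher in soleus. The third Cxcl12 probe set, 1369633_at, gave 0.42 ± 0.31 (adjusted p = 0.459). Without any 1 of exercised vehicle gastrocnemius replicates 1 and 4 or exercised vehicle soleus replicates 2, 3 and 4, only 1 of the 2 passed. In unexercised vehicle animals none of the 14 passed, against 4.07% of all probe sets called in either direction, while the same 2 probe sets again did not overlap and gave 0.81 ± 0.37 and 0.65 ± 0.31 (adjusted p = 0.235 and 0.259). Ccl2, at 1.69 ± 0.85 and 1.10 ± 0.85, did not pass (adjusted p = 0.228 and 0.53).

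Ordered by group mean, the exercised high-dose gastrocnemius stood first for Ccl2, at 14674 ± 2925 (SD, n = 4), and the unexercised high-dose gastrocnemius second, at 11403 ± 9667 (SD, n = 3). The 4 soleus groups followed with means from 380.0 to 580.1 and SDs from 112 to 405. The lowest soleus SD, that of the unexercised high-dose group (456.1 ± 112, n = 3), was smaller than its distance to the exercised high-dose group (580.1 ± 387, n = 4), but the arrays of these groups overlapped. The gastrocnemius groups at vehicle and the lower doses had means from 121.2 to 363.8. Ccl7 had the same first and second group, at 9037 ± 2869 (SD, n = 4) and 5848 ± 4948 (SD, n = 3), and then exercised high-dose soleus at 232.2 ± 204 (SD, n = 4). The remaining 9 group means of Ccl7 lay between 32.3 and 177.3.

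Markers of macrophages and monocytes, cells that respond to Ccl2 and Ccl7, were set beside the chemokines. In exercised gastrocnemius all 14 such markers on the array rose at the high dose, with a median log2 fold change of 4.62, where 22.9% of all genes rose and 17.7% fell. Examples were Aif1 (5.22 ± 0.57), Tyrobp (5.07 ± 0.64) and Cd68 (4.89 ± 0.68). Their summed signal was 74038.6 to 173745.9 at the high dose, against 6433.5 to 7871.2 with vehicle, without overlap. In unexercised animals 12 of 14 rose, with a median of 2.69, where 4.9% of all genes rose. Without replicate 3 of the high-dose group all 14 rose, where 14.5% of all genes did. The 6 arrays with the highest Ccl2 signals were also the 6 with the highest macrophage sums. In soleus no marker of any of the 7 lists passed at the high dose. These are whole-muscle extracts, so that more cells of a type and more RNA per cell cannot be told apart, and the part of macrophages in the chemokine signals was not tested.

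**Figure D4:**
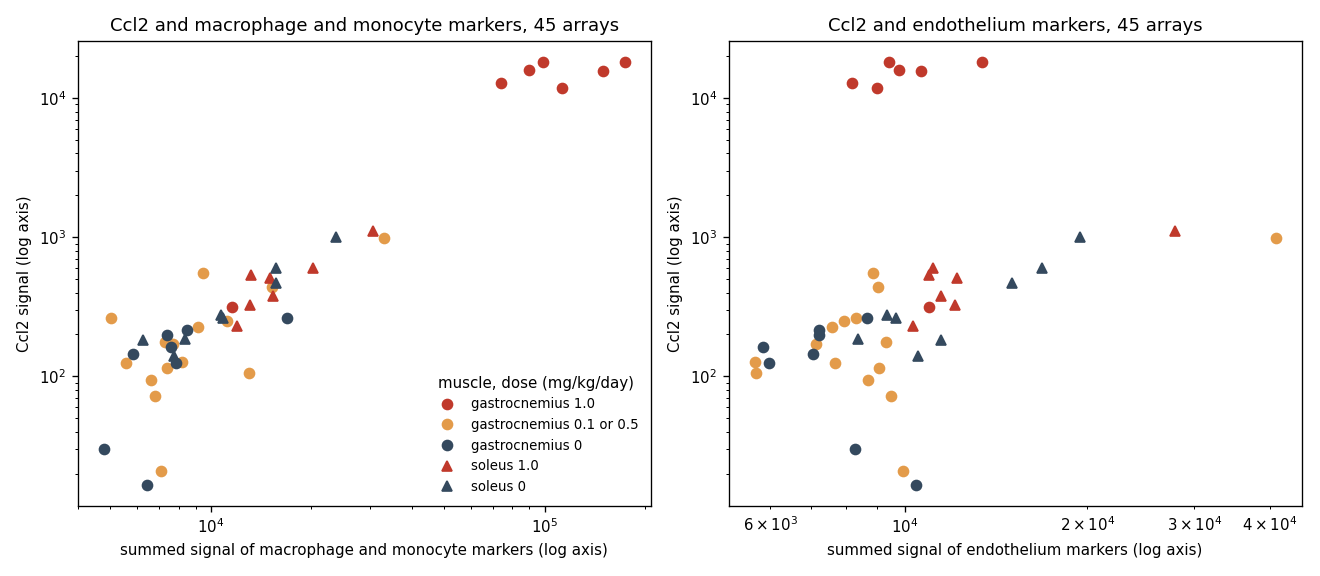
Ccl2 signal against the summed signal of macrophage and monocyte markers (left) and of endothelium markers (right) on all 45 arrays, both axes logarithmic; colour is the dose and shape the muscle. The 6 arrays of highest Ccl2 (11769.6 to 18251.9) have macrophage sums from 74038.6 to 173745.9, while the highest endothelium sum, 40834.6, belongs to an array with a Ccl2 signal of 982.9.

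Other cell types were represented as follows in exercised high-dose against vehicle gastrocnemius, where 22.9% of all genes rose and 17.7% fell. Of neutrophil markers 3 of 7 rose, S100a9 (5.34 ± 0.88), S100a8 (4.27 ± 0.96) and the receptor Csf3r (2.5 ± 0.56). Of T and NK cell markers 5 of 14 rose, among them Cd8b (3.12 ± 0.64), Cd8a (2.35 ± 0.70) and Nkg7 (2.25 ± 0.53). Of fibroblast markers 6 of 10 rose, led by Lum, a matrix proteoglycan (3.58 ± 0.53), Thy1 (2.70 ± 0.66) and Pdgfra (2.48 ± 0.46). Of endothelium markers 2 of 9 rose (Tie1, 1.51 ± 0.46, and Esam, 0.95 ± 0.35), a share of 22.2% that is near that of all genes. Without the array of lowest GAPDH ratio, which is not in either group but shares the fit, 4 of 9 did, where 25.0% of all genes rose. Of satellite cell markers 3 of 7 rose, among them the adhesion molecule Vcam1 (3.66 ± 0.46) and Itga7 (1.79 ± 0.43), and Calcr fell (-1.50 ± 0.55). The median log2 fold change of these 7 was -0.27. Their summed signal was nevertheless 10323.5 to 17664.5 at the high dose, against 6279.4 to 8558.7 with vehicle, without overlap. The median and the sum differ, so that no single direction is stated for this list. Of 12 skeletal muscle markers none rose and 7 fell, among them Casq1 (-2.93 ± 0.51), Myoz1 (-2.33 ± 0.45) and the fast myosin Myh4 (-2.04 ± 0.42). The arrays of lowest GAPDH ratio combined low muscle sums (262749.7, 294426.7 and 407255.2) with macrophage sums of 33050.9, 30689.7 and 23695.3. On the same 3 arrays, given in the same order, Cxcl12 probe set 1369633_at read 6215.8, 7723.1 and 5772.9, above every vehicle gastrocnemius array (highest 2370.8).

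Of 23 other chemokine ligands on the array, 11 rose and 1 (Ccl27, an epithelial ligand) fell in exercised high-dose gastrocnemius, with a median log2 fold change of 1.31. This is 47.8% higher, against 22.9% of all genes. The largest changes were those of Ccl20, which attracts cells carrying Ccr6 (5.31 ± 0.71, mean signals of 1882.0 at the high dose and 14.7 with vehicle), Cxcl13, a B cell attractant (3.37 ± 0.73), Pf4, or platelet factor 4 (3.30 ± 0.47), Cxcl16 (2.92 ± 0.49) and Ccl9 (2.82 ± 0.85). In unexercised muscle 3 of the 23 rose, where 4.9% of all genes did: Ccl20 (2.97 ± 0.76), Cxcl16 (1.82 ± 0.53) and Cxcl14 (1.26 ± 0.35). Of 15 other receptors 2 rose with exercise, a share of 13.3% that is below the 22.9% of all genes: Ccr1 (4.71 ± 0.78), which binds Ccl3 and Ccl5, and Ccr2 (3.36 ± 0.58), which binds Ccl2 and Ccl7. Without exercise neither passed (Ccr1 2.43 ± 0.84, adjusted p = 0.082, and Ccr2 1.64 ± 0.62, adjusted p = 0.113). Without replicate 3 of the unexercised high-dose group, 8 of the 23 ligands and 2 of the 15 receptors rose, where 14.5% of all genes did.

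Of 19 genes known to induce chemokines, 14 (73.7%) rose and none fell in exercised high-dose gastrocnemius, with a median of 1.59. Of all genes, 22.9% rose and 17.7% fell there. The 14 inducers included the cytokines Il6 (4.34 ± 0.81) and Il1b (3.09 ± 0.60), the Toll-like receptor Tlr2 (4.00 ± 0.73), its adaptor Myd88 (2.68 ± 0.40) and Nfkbiz, a regulator of NF-kappaB (3.06 ± 0.71). Without exercise 5 rose (26.3%, against 4.9% of all genes), namely Tlr2, Tlr4, Myd88, Nfkb2 and Hif1a. Without replicate 3 of the unexercised high-dose group 11 rose (57.9%), where 14.5% of all genes did. In soleus none of the 3 lists had a member past the threshold at the high dose. In the direct comparison of the muscles, 13.1% of all genes had a lower fold change in exercised soleus than in exercised gastrocnemius. The counts were 4 of 23 other ligands (17.4%) and 2 of 15 other receptors (13.3%), both near that share, and 11 of 19 inducers (57.9%). Without the 3 arrays of lowest GAPDH ratio, 7 of the ligands, 3 of the receptors and 12 of the inducers were lower, where 18.0% of all genes were.

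**Figure D5:**
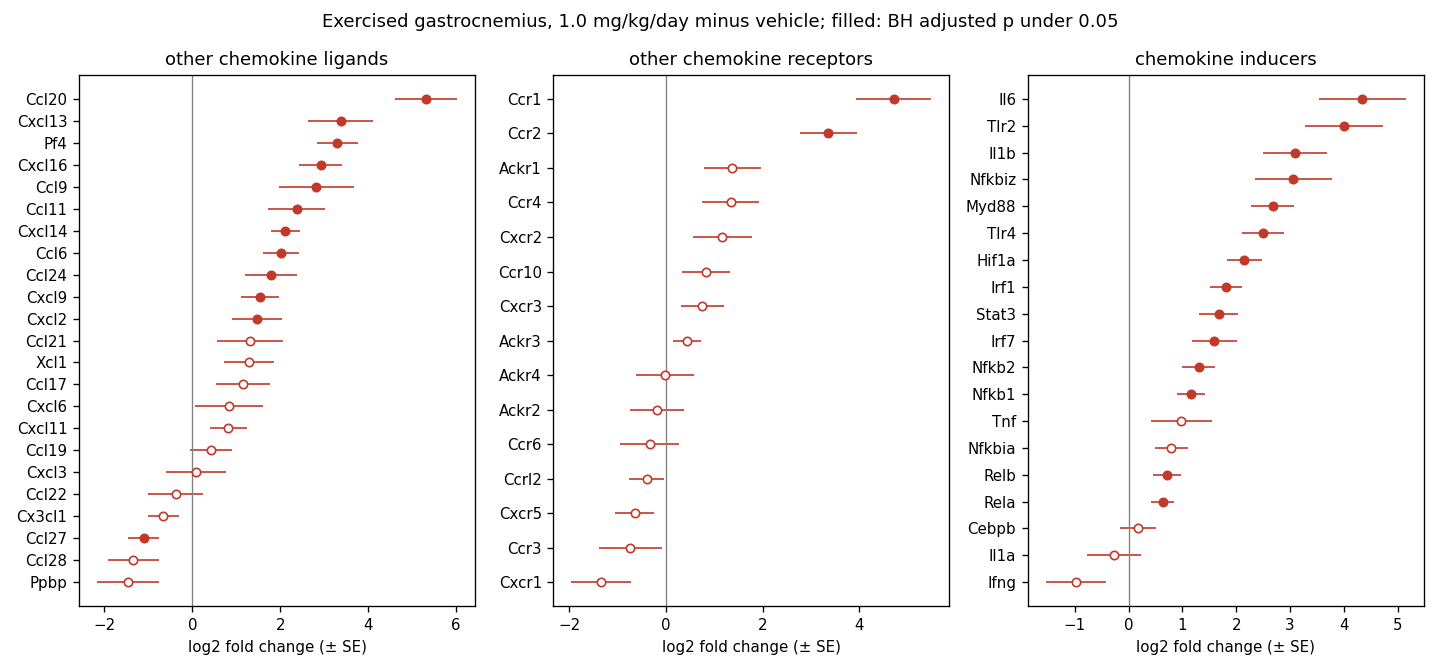
Log2 fold change (± SE, x axis) at cerivastatin 1.0 mg/kg/day minus vehicle in exercised gastrocnemius for other chemokine ligands (23), other receptors (15) and chemokine inducers (19); filled symbols passed an adjusted p of 0.05. Ccl20 (5.31), Ccr1 (4.71) and Il6 (4.34) head the 3 panels, and Ccl27 is the 1 filled symbol below 0.

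Across the 30 gastrocnemius arrays, the genes most like each member by Pearson correlation of log2 signals were as follows, as a description over arrays that share their dose groups. For Ccl2 they were Gpnmb (0.964), Cd14 and Fcgr2b (both 0.96), and for Ccl7 Vcan (0.965), Ctsz and Cd44 (both 0.962). For Ccl4 they were Stat2 (0.938), Litaf (0.933) and Ifi30 (0.932), and for Ccl3 Lpxn (0.839), Tfpi (0.834) and Itgax (0.833). Cxcl1 was most like Rnh1 (0.947), Insig1 (0.944) and Hnrnpab (0.939), and Cxcl10 like Melk (0.854), Chi3l1 (0.851) and Slc23a2 (0.848). The members that moved less had looser matches: Cxcl12 (probe set 1388583_at) Cdc42ep2 (0.824), Cxcr4 Tm6sf1 (0.747), Ccl5 Dolpp1 (0.724) and Cx3cr1 Nat2 (0.708).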

How the data were processed

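The deposited values are intensity values on a linear scale, 1 per probe set and array, and MAS5 is the tool the authors used, according to the submitters' processing notes, with no version or scaling target stated there. Per the labels' protocols, about 4 µg of gastrocnemius or 3 µg of soleus RNA, extracted with RNeasy, gave biotinylated cRNA. Replicates are biological per the series' design text, and soleus samples with no mention of exercise were taken as unexercised. The 57 control probe sets of 31099 were left out. Of the rest, 20826 had 1 gene symbol in the platform annotation, 436 several and 9780 none; those with several were left unnamed.

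Values were analysed as log2(value + 12.4), the offset being the 10th percentile of all values, so that fold changes of dim genes are understated. No filter on low values was applied, since one on the mean would keep members through the high-dose arrays; 12 of the 14 member probe sets (8 genes) pass a filter at the 30th percentile of mean log2 (6.03), and those of Cxcl1 and Cx3cr1 do not. Group means were fitted with limma 3.58.1 in R 4.3.3 (lmFit, contrasts.fit, eBayes with trend) on the 30 gastrocnemius, 15 soleus or, between muscles, all 45 arrays. Adjusted p-values are Benjamini-Hochberg values over 31042 probe sets, with a threshold of 0.05. The fit was tested on simulated data. The number of arrays limits the precision, and no pair of arrays was identical.

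The members and all lists (other ligands, other receptors, inducers and 7 cell type marker lists) were chosen with earlier results of these data known. All members are described. From the other lists the text names up to 5 genes (markers up to 3) with the largest absolute fold change among those that passed in exercised high-dose against vehicle gastrocnemius, each gene being represented by its probe set of highest mean, and genes behind counts of 5 or fewer, which were chosen after their values were seen. Likeness is the Pearson correlation over the 30 gastrocnemius arrays. Alternatives were offsets of 1 and 50, the filter, median centring, quantile normalization, no trend, other sets of arrays, a replicate block and leaving out each array; leaving out the 3 arrays of lowest GAPDH ratio, and the list counts without these or without replicate 3 of unexercised high-dose gastrocnemius, were added after seeing the data.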

Additional observations from a re-analysis of the deposited data

Results flagged for a closer look

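Each of the 14 probe sets was checked in each group of 4 arrays, which gave 126 combinations. Groups of 3 arrays, among them unexercised high-dose gastrocnemius, were not checked. Chance flags about 1 in 20 combinations, and those that share arrays are not independent. In 10 of the 126 combinations, 1 array lay far from the other 3. Of these, 4 belong to the 3 arrays of lowest GAPDH 5′ to 3′ ratio: Ccl2 at 982.9 and Cxcl1 at 119.5 in unexercised gastrocnemius at 0.1 mg/kg/day (replicate 3), Cxcl12 probe set 1369633_at at 7723.1 in exercised high-dose soleus (replicate 1), and Ccl7 at 170.3 in unexercised vehicle soleus (replicate 3), all of them high. Cxcl1 read 73.9 in unexercised vehicle gastrocnemius replicate 3, where the other 3 arrays read 4.6 to 8.3. Ccl5 was low in unexercised gastrocnemius at 0.5 mg/kg/day replicate 1 (34.6) and in exercised high-dose soleus replicate 4 (18.7). In exercised gastrocnemius at 0.1 mg/kg/day, replicate 3 was high for Cx3cr1 (146.2) and low for Cxcr4 probe set 1370097_a_at (144.1), and the same Cxcr4 probe set was high in unexercised gastrocnemius at 0.5 mg/kg/day replicate 3 (647.5).

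The response to the high dose differed between exercised soleus and exercised gastrocnemius, by a test of the difference of log2 fold changes, for 6 probe sets. The differences, soleus minus gastrocnemius, were -6.54 for Ccl2, -5.81 for Ccl7, -3.66 for Ccl3, -2.93 for Ccl4, -2.5 for Cxcl10 and -2.18 for Cxcl12 probe set 1387655_at.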

How the results depend on the processing

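Counts of members that passed were within 1.5 times of the main count under every offset, scaling, filter and prior tried. No member's fold change turned its sign while called for the high dose against vehicle, in either muscle, or for unexercised vehicle soleus against gastrocnemius. Signs were not compared between settings for the other comparisons. Fitting only the groups compared left 0 of 4 in unexercised high-dose gastrocnemius, against vehicle and against 0.5 mg/kg/day. Leaving out 1 array at a time gave 9 to 12 members for the high dose against vehicle in exercised gastrocnemius and 0 to 7 in unexercised, 8 to 10 and 0 to 7 for the high dose against 0.5 mg/kg/day, 6 to 8 and 0 to 5 for the difference between the muscles' responses, and 1 to 2 for exercised vehicle soleus against gastrocnemius; all other comparisons stayed at 0. High against 0.5 mg/kg/day without exercise gave 2 without replicate 1, 3 or 4 of the 0.5 mg/kg/day group. In the comparisons checked, same-numbered arrays did not deviate together (correlations from -0.18 to 0.20), so the replicate numbers were not taken as pairs. Between the muscles only vehicle groups were checked. The sample titles do not say whether both muscles came from the same animals, and the tests between muscles treat their arrays as independent. A replicate block left 9 members in exercised and 3 in unexercised high-dose gastrocnemius (Ccl4 at adjusted p = 0.0735), with 9478 and 1104 of all probe sets called, where the unblocked fit called 9587 and 1603. Leaving out the 3 arrays of lowest GAPDH ratio gave 9 and 5 members there, with 10656 and 3640 of all probe sets called. With the filter on low values, 2 of 21729 probe sets were called for the difference between the muscles' responses in unexercised animals, where 1 was called without it. With median centring, the median log2 fold change over all probe sets in exercised high-dose gastrocnemius was -0.2, where it had been -0.1. Centring also changed calls in unexercised vehicle soleus against gastrocnemius to 418 higher and 755 lower, where the main fit gave 597 and 666. Dim probe sets such as those of Cxcl1 and Cx3cr1 have little signal over background, and groups of 3 or 4 arrays limit what could be detected.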
